A study of Mus musculus with 72 samples.

Results

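Distal enhancers of mouse embryonic fibroblasts (MEFs) that carried p300, Brd3 and H3K27ac without CEBPB were examined in cells with and without the nucleosome-binding proteins HMGN1 and HMGN2. The members were 1351 regions selected on the WT peak lists, out of 4031 distal p300 sites and 7323 p300 peaks of WT replicate 1. A member was a p300 peak of WT replicate 1 that overlapped a p300 peak of WT replicate 2 by at least 1 bp and lay more than 1000 bp from every protein-coding transcript start of GENCODE vM1. It also overlapped an H3K27ac peak and a Brd3 peak of at least 1 WT replicate, and no CEBPB peak of either WT replicate. The WT calls of these 4 antibodies therefore chose the members and are given as a description. The other 2680 distal p300 sites fell into 717 with H3K27ac, Brd3 and CEBPB, 1042 with H3K27ac and no Brd3, and 921 with no H3K27ac.

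Chromatin came from C57BL/6 MEFs that were Hmgn1+/+n2+/+ (WT) or Hmgn1-/- n2-/- (DKO, double knockout in every cell of the animal), with no further treatment named in the labels. Each of 6 antibodies (p300, Brd3, H3K27ac, CEBPB, H3K27me3 and histone H1) had 2 biological replicates per genotype, which made 24 lists. The age of the embryos is not given in the sources used here. Each list holds the authors' MACS2 peaks, with the fold enrichment of the summit pileup over the local background and its −log10 q, where q is the caller's adjusted p. With 2 replicates against 2, an exact permutation test cannot give a p below 0.333, so shares of members with a peak are given per replicate without a test.

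p300 is an acetyltransferase that is brought to enhancers by sequence-specific transcription factors and acetylates histones there, including H3 at lysine 27. H3K27ac marks active enhancers and promoters. Brd3 is a BET-family reader whose bromodomains bind acetylated histones, and CEBPB is a bZIP transcription factor that recruits p300 in many cell types. In fibroblasts, AP-1, TEAD and RUNX factors are known occupants of such enhancers.

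All 12 fibroblast marker genes had an H3K27ac peak within 1000 bp of a start in all 4 H3K27ac libraries, among them Col1a1, Pdgfra, Twist1 and Prrx1. No pluripotency marker of 6, no B cell marker of 5 and no epithelial marker of 5 had one in any library. Of 5 macrophage markers, Csf1r and Cd68 had a peak in all 4 libraries and Ptprc, Emr1 and Lyz2 in none. Of 4 endothelial markers, Kdr alone had a peak, in DKO replicate 1. The promoter of Hmgn2 had 3 H3K27ac peaks in both WT replicates and 0 in both DKO replicates. That of Hmgn1 had 2 in both WT replicates against 3 and 4 in DKO cells, with a highest fold enrichment of 19.5 and 21.3 against 25.6 and 27.3. The Hmgn1 promoter peaks therefore do not check the genotype labels. The lists hold no read depth. The lowest background solved from enrichment and p, which follows depth, was 1.58 and 1.15 reads for p300 in WT against 1.22 and 1.27 in DKO libraries. It was 1.75 and 1.89 against 1.24 and 1.54 for Brd3, and 1.64 and 1.44 against 1.77 and 1.87 for H3K27ac. DKO Brd3 libraries were thus shallower than WT ones by this measure, and the part of depth in the Brd3 results was not tested.

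The sequences around the p300 summit of 6 members show what the binding regions look like among the named members. Each is the mm9 reference, plus strand, from 100 bp before to 100 bp after the summit of WT replicate 1, with AP-1 letters (TGACTCA or TGAGTCA) and TEAD letters (ACATTCC, either strand) in capitals. Glrp1 names the member with the highest WT p300 score. The Cdh5 and Camta1 members had the highest WT score among those with neither p300 nor Brd3 in DKO cells. The Gadd45g member had one of the largest falls in p300, and the Runx1 and Col5a2 members led their gene lists. The windows lay at chr1:90372150-90372350 (Glrp1), chr8:106437913-106438113 (Cdh5) and chr4:150785893-150786093 (Camta1). The others lay at chr13:52065545-52065745 (Gadd45g), chr16:92621065-92621265 (Runx1) and chr1:45637448-45637648 (Col5a2).
Glrp1: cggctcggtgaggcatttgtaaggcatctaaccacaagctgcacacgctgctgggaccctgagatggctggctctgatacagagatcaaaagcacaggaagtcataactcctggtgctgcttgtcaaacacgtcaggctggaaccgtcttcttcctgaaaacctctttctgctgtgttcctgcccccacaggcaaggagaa
Cdh5: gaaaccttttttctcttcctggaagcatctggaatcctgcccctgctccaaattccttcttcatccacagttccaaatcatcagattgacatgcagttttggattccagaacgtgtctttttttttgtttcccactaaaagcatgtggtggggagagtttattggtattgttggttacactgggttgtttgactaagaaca
Camta1: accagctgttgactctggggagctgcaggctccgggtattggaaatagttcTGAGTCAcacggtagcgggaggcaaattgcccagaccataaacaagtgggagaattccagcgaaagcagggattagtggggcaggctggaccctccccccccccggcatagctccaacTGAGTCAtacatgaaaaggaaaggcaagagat
Gadd45g: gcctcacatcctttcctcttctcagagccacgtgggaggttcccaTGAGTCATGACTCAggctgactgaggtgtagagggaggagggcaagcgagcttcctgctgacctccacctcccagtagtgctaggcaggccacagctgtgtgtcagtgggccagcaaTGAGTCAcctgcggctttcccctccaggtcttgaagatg
Runx1: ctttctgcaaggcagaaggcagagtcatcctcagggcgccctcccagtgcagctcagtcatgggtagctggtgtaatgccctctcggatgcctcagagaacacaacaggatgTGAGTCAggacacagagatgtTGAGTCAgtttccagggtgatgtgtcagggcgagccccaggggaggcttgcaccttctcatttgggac
Col5a2: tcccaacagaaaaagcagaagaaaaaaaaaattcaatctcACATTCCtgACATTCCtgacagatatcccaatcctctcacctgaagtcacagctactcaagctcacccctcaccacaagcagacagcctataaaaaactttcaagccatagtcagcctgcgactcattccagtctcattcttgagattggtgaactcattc

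AP-1 letters lay 2 times in the Camta1 window, which had no p300 peak in DKO cells. The Gadd45g window held 3 matches, 2 of them abutting. The Col5a2 window held 2 TEAD matches and no AP-1 match, and the Glrp1 and Cdh5 windows held neither.

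Across all members, the motif with the highest share was AP-1. It was found within 100 bp of the summit at 537 of 1351 members (39.7%), at 39.6% of the other distal p300 sites and at 4.29% of positions 5000 bp to either side of members. AP-1 letters were thus as common at the other p300 sites as at members. More than 1 match lay at 110 members. The match nearest to the summit was centred a median of 26.0 bp from it, and within 20 bp at 220 members. TEAD letters lay at 240 members (17.8%), against 15.5% of other sites and 3.59% of positions 5000 bp away. The E-box CAGCTG, read by many bHLH factors, lay at 18.1% of members, 14.2% of other sites and 8.92% of distant positions. RUNX letters (TGTGGTT) were less frequent at members than at other sites, at 10.4% against 15.1%, with 3.96% at distant positions. The GC box GGGCGG lay at 5.26% against 2.43%, and ETS letters (CCGGAAG) at 1.78% against 0.709%. CEBP letters (TTGCNNAA) lay at 5.70% of members and at 7.88% of distant positions, and at 14.3% of the other sites. The rule excluded CEBPB peaks from members, and the part of this exclusion in the contrast was not tested. All letters were searched on both strands. No motif is contained in another, although neighbouring matches can share bases. The GC content of the 201 bp window had a median of 47.3% at members and 43.3% at other sites, with SDs across sites of 7.15 and 6.28. The windows of 12.4% of members held no CpG, against 21.8% of other sites.

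**Figure D1:**
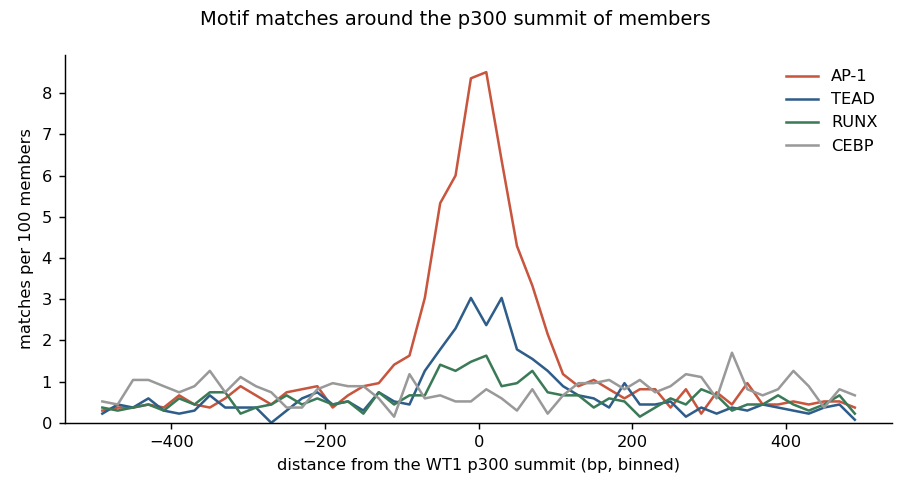
Matches per 100 members in 20 bp bins of distance from the WT replicate 1 p300 summit, one line per motif (AP-1, TEAD, RUNX, CEBP). AP-1 rises to 8.51 matches per 100 members next to the summit and TEAD to 3.03, while CEBP shows no rise there.

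H3K27ac and Brd3 summits lay to the side of the p300 summit, whose position the WT replicates shared closely. The WT replicate 2 summit of p300 lay a median of 29.0 bp from that of replicate 1. Brd3 summits lay 252 and 260 bp away in the WT replicates, and H3K27ac summits 328 and 324 bp. An H3K27ac peak covered the point 300 bp upstream of the p300 summit at 93.5% and 92.7% of members in the WT replicates, but the p300 summit itself at only 47.4% and 42.8%. Brd3 showed a shallower dip, with 63.7% and 63.7% at the same point and 49.7% and 47.4% at the summit.

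In DKO cells H3K27ac cover was much the same on the flanks and higher at the p300 summit. WT H3K27ac calls and the WT p300 summit chose and placed the members, and this measure was added after the values were seen, so it is a description. At 300 bp upstream, H3K27ac cover was 91.5% and 92.7%. At the p300 summit it was 53.9% and 58.3%, so that both DKO replicates lay above both WT replicates, by 11.03 percentage points on average (45.1% ± 3.25 against 56.1% ± 3.14, SD, n = 2). Among members with p300 in both DKO replicates, summit cover was 43.8% and 39.2% in WT against 53.8% and 59.3% in DKO cells. Among members with p300 in neither DKO replicate it was 55.0% and 49.6% against 53.5% and 58.1%, where the groups overlap. At the 1759 other distal p300 sites with WT H3K27ac the values were 30.7% and 30.3% against 33.6% and 35.0%. The median width of all H3K27ac peaks was 383 and 370 bp in WT against 400 and 412 bp in DKO libraries, and that of the H3K27ac peaks on members was 1230 and 1134 bp against 1381 and 1474 bp. The solved H3K27ac background was also higher in both DKO libraries (1.77 and 1.87 against 1.64 and 1.44). The part of width and depth in the summit cover was not tested. Members had to overlap a WT Brd3 peak, so WT Brd3 cover is high by the rule and no contrast between genotypes is read from it. At the summit DKO Brd3 cover was 3.77% and 5.55% in the DKO replicates, and at 300 bp upstream 13.8% and 20.4%.

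**Figure D2:**
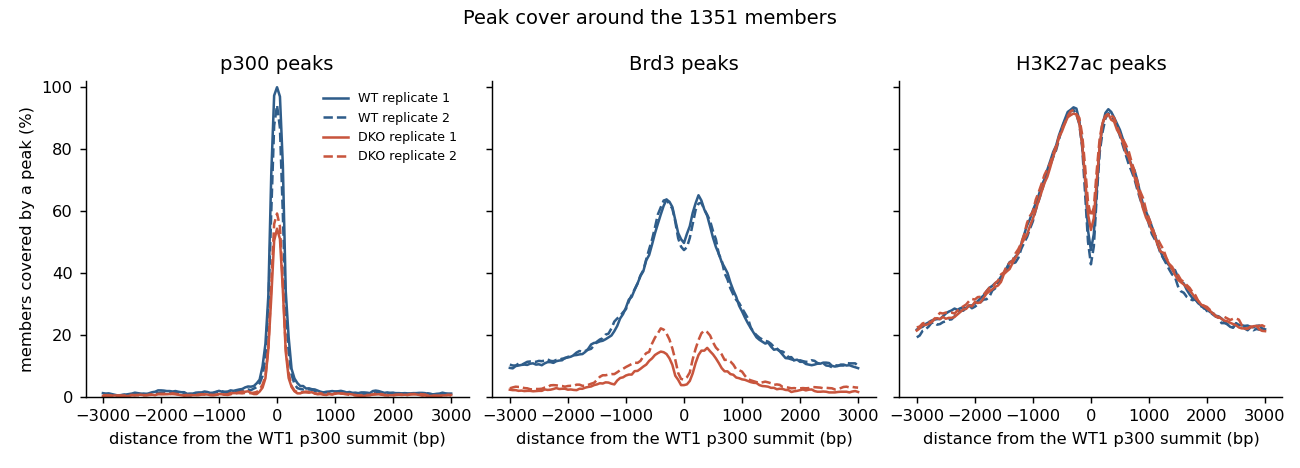
Share of the 1351 members covered by a p300, Brd3 or H3K27ac peak (y axis, %) at each distance from the WT replicate 1 p300 summit (x axis, bp), one line per library. WT Brd3 cover is high by the rule, and DKO Brd3 cover at the summit is 3.77% and 5.55%, while the H3K27ac lines coincide on the flanks and differ at the summit.

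In DKO cells H3K27ac peaks remained at nearly all members, while p300 and Brd3 peaks were called at 59.0% and 16.9% on average. With the same number of top peaks taken from every list of an antibody, p300 and Brd3 were at 81.2% and 31.8% of members. With the rule applied without WT replicate 2 they were at 45.7% and 20.03%. With the p300 summit required inside each peak, Brd3 was at 9.07% and H3K27ac at 82.4%. p300 peaks overlapped 759 members in DKO replicate 1 and 835 in DKO replicate 2, 59.0% ± 3.98 (SD, n = 2). The share of the other distal p300 sites was 51.5% ± 2.01. Among these, the sites with H3K27ac, Brd3 and CEBPB had p300 at 70.6% and 73.5%, against 56.2% and 61.8% of members. Sites with H3K27ac and no Brd3 had it at 44.3% and 46.4%, and sites with no H3K27ac at 40.6% and 44.2%. Because the rule requires p300 in both WT replicates, WT stands at 100% by construction. Both DKO replicates called p300 at 632 members (46.8%), against 41.7% of all distal p300 sites. Neither called it at 389 (28.8%), against 33.7% of all. Since WT p300 calls chose every one of these sites, no contrast between genotypes is read from these counts.

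Brd3 peaks overlapped 1133 and 1120 members in WT cells. The DKO replicates had 191 and 266, or 83.4% ± 0.680 against 16.9% ± 3.93 (SD, n = 2), where the rule used the WT calls. No DKO replicate called Brd3 at 1025 members (75.9%), against 87.1% of all distal p300 sites. Of all these sites, only 45.2% and 45.7% had Brd3 in the WT replicates. Both called it at 131 members (9.70%), against 5.18% of all. At the sites with H3K27ac, Brd3 and CEBPB, the DKO replicates called Brd3 at 15.1% and 20.9%, against 14.1% and 19.7% of members. Brd3 was called in both WT replicates at 902 members, of which 181 and 252 (20.1% and 27.9%) had it in the DKO replicates. Of the 11496 distal Brd3 peaks of both WT replicates, 21.5% and 27.9% did. In a wider window of 2000 bp to either side of the summit, Brd3 peaks covered a mean of 268 and 379 bp in the DKO replicates, and 1321 and 1329 bp in the WT replicates that chose the members. At least 1 DKO Brd3 peak lay in that window at 587 and 713 members, so part of the members without a Brd3 peak on the p300 site had one nearby.

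H3K27ac peaks overlapped 1298 and 1265 members in WT against 1254 and 1269 in DKO cells, and the groups overlap. The shares were 94.9% ± 1.73 and 93.4% ± 0.785 (SD, n = 2). Both DKO replicates called H3K27ac at 1221 members (90.4%), against 65.1% of all distal p300 sites, and neither at 49 (3.63%), against 23.3% of all. The share of all sites includes the 921 chosen for lack of WT H3K27ac. At the sites with H3K27ac, Brd3 and CEBPB, the DKO replicates called H3K27ac at 94.6% and 94.4%, against 92.8% and 93.9% of members. Of the 1212 members with H3K27ac in both WT replicates, 95.3% and 96.5% had it in the DKO replicates. The corresponding shares of the 47703 distal H3K27ac peaks of both WT replicates were 78.6% and 80.2%. H3K27ac around members covered 2358 and 2290 bp of the 4001 bp window in WT and 2333 and 2391 bp in DKO cells.

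The joint calls of p300 and Brd3 are set beside those of all distal p300 sites. Neither p300 nor Brd3 was called in any DKO replicate at 323 members (23.9%), against 31.3% of all sites, and 274 of these had H3K27ac in both DKO replicates. p300 stayed in both DKO replicates without Brd3 in either at 441 members (32.6%), against 33.4% of all, and 406 of these had H3K27ac in both. Brd3 in both DKO replicates without p300 in either was found at 23 members (1.70%), against 0.794% of all. Both were called in both DKO replicates at 85 members (6.29%), against 3.62% of all, and 84 of them had H3K27ac in both.

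**Figure D3:**
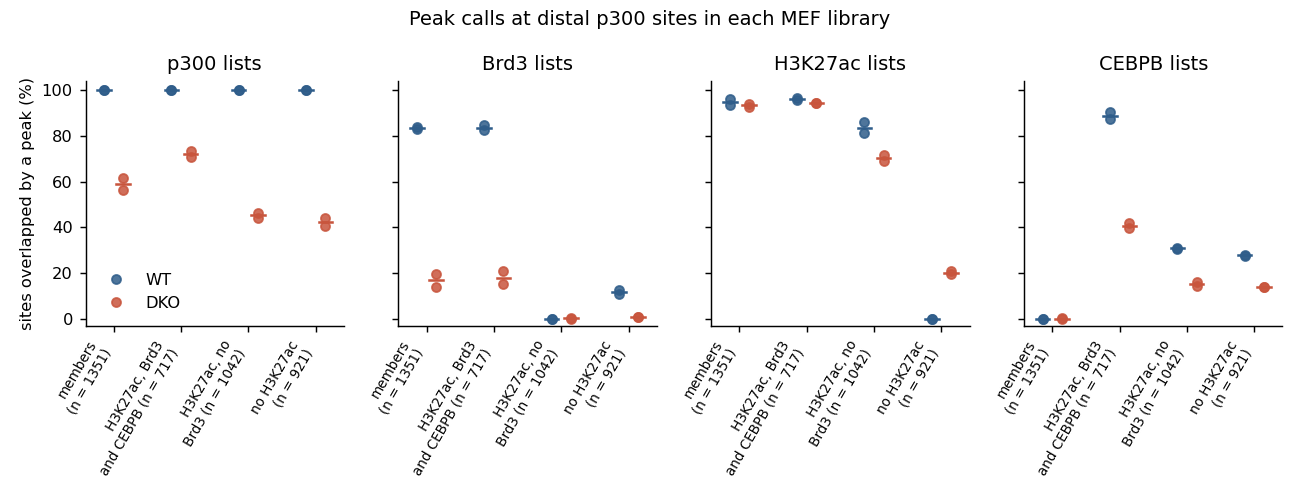
Share of distal p300 sites overlapped by a peak (y axis, %) in the p300, Brd3, H3K27ac and CEBPB lists, for members and the 3 other classes, with 1 point per library and a bar at the mean of 2. Members lie at 83.4% for Brd3 in WT and 16.9% in DKO cells, and at 94.9% and 93.4% for H3K27ac. WT Brd3 is high by the rule, so no contrast between genotypes is read from it. The class with H3K27ac, Brd3 and CEBPB lies at 83.5% and 17.99% for Brd3.

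The share of members with a DKO p300 peak is given by the strength of the WT peak, as a description, since WT p300 calls chose the members and weak peaks lie close to the caller's threshold. Members were ranked by the mean −log10 q of both WT p300 peaks and split into 10 equally large classes. In the weakest class, 19.9% and 20.6% had p300 in the DKO replicates. The shares were 53.3% and 53.3% in class 5 and, in the strongest, 99.3% and 98.5%. The shares of other distal p300 sites also rose with strength. When all distal p300 sites were divided into 5 classes of strength, in the weakest of them, members had p300 at 19.6% and 24.1% and other sites at 25.2% and 24.7%. In the next class the shares were 32.9% and 41.7% against 30.6% and 32.0%, so the order of members and other sites was not the same in both classes. In the strongest of the 5 the shares were 92.9% and 94.4% against 92.7% and 94.2%. Members with no p300 in DKO cells had a median WT fold enrichment of 6.22 and 6.20, and those with p300 in both DKO replicates 9.26 and 8.55. Their WT H3K27ac differed little, with medians of 12.6 and 12.0 against 13.2 and 13.7. Members with AP-1 letters had p300 in the DKO replicates at 58.7% and 65.0%, and those without at 54.5% and 59.7%, with median WT −log10 q of 13.3 and 12.0. At like WT strength the order was not steady, since p300 was in neither DKO replicate at 41.3% of members with AP-1 letters against 29.8% without in class 3 of the 5, and at 39.8% against 49.3% in class 2. Brd3 was kept at 11.03% and 11.8% of the weakest class by p300 and at 32.6% and 35.6% of the strongest of the 10 classes.

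The same rule applied to the DKO lists in place of the WT lists gives the view from the other side. It found 235 sites among 1947 distal p300 sites of both DKO replicates, of which 158 overlapped a member. These sites had p300 in the WT replicates at 98.3% and 91.9% and Brd3 at 97.4% and 97.4%. Members had p300 in the DKO replicates at 56.2% and 61.8% and Brd3 at 14.1% and 19.7%. The DKO lists were shorter, with 2974 and 3325 p300 peaks against 7323 and 5398 in WT and 8970 and 11549 Brd3 peaks against 31404 and 33072, so no contrast between genotypes is read from these shares.

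**Figure D4:**
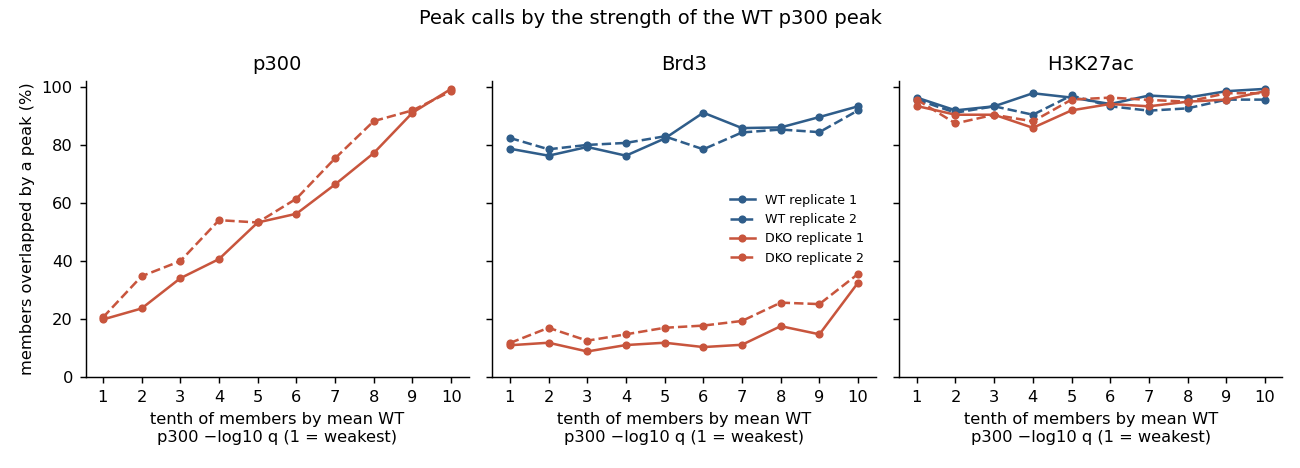
Share of members overlapped by a peak (y axis, %) in 10 equal classes of the mean −log10 q of the WT p300 peaks (x axis, 1 is the weakest), one line per library. p300 in DKO cells rises from 19.9% and 20.6% to 99.3% and 98.5%, Brd3 in DKO cells stays below 36%, and H3K27ac lies above 85% in every class.

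Enrichment was compared only at sites called in all 4 libraries of an antibody, with limma on log2 fold enrichment over all such merged sites and Benjamini-Hochberg adjustment at 0.05. This leaves out the members that overlapped no such site. A merged site can be wider than the p300 peak, so some members without a DKO peak of their own were tested. Of 1730 p300 sites, 11 were lower in DKO cells (0.636%) and 0 higher (0%), with 344 and 84 at an unadjusted p under 0.05. A tested site was overlapped by 637 members, over 634 distinct sites, of which 2 were lower and 0 higher, or 134 and 29 at an unadjusted p under 0.05. The median log2 difference was −0.23 at members, a factor of 0.854, and −0.21 at all sites. At the 632 members with a p300 peak in each library, median fold enrichment was 9.26 and 8.55 in WT against 7.63 and 7.58 in DKO cells. These values cover only sites with a peak in all 4 libraries, and WT p300 calls had chosen the members, so the member difference is a description. The share of all sites called, in either direction, was 0% after centring on the library median. It was 3.99% with a trended prior, 5.95% with a stricter q and 7.75% with pileup over background.

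Brd3 enrichment was lower at 18.7% of 5422 tested sites and higher at 0.443%. Of the 419 members that overlapped a tested site, which shared 396 distinct sites, 90 (21.5%) were lower and 1 higher. WT Brd3 calls had chosen the members, so the member counts and differences are a description. When either DKO replicate was left out, 0 members were lower, although the median log2 difference stayed at −0.45 and −0.44, and without a WT replicate 76 and 65 were lower. The median log2 difference at these members was −0.44, a factor of 0.736, and at all sites it was −0.39. It was below 0 at 362 of 419 members (86.4%), against 82.5% of all tested sites. A tested Brd3 site can be wider than the p300 peak, and 127 members had a Brd3 peak on the p300 site itself in each library. There the median fold enrichment was 8.91 and 9.19 in WT against 6.38 and 6.38 in DKO cells. When each library was centred on its median, 0 members were lower and 3 higher by limma, with 80 of all sites called, so the fall at members was no longer called relative to the whole Brd3 list.

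H3K27ac enrichment was lower at 3.43% and higher at 1.68% of 42234 sites. Among the 1312 members tested, which shared 1245 distinct sites, 40 were lower (3.05%) and 17 higher (1.30%). WT H3K27ac calls had chosen the members, so these counts too are a description. After centring on the library median the split was 23 lower and 26 higher, and without WT replicate 1 it was 22 and 27. More were called with a trended prior (89 lower and 59 higher), a replicate block (82 and 44) and pileup over background (73 and 14). The median log2 difference at members was −0.03, with quartiles of −0.33 and 0.24, against −0.08 at all sites. At the 1136 members with an H3K27ac peak in each library, median fold enrichment was 13.5 and 13.4 in WT against 13.7 and 13.5 in DKO cells, and the groups overlap.

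**Figure D5:**
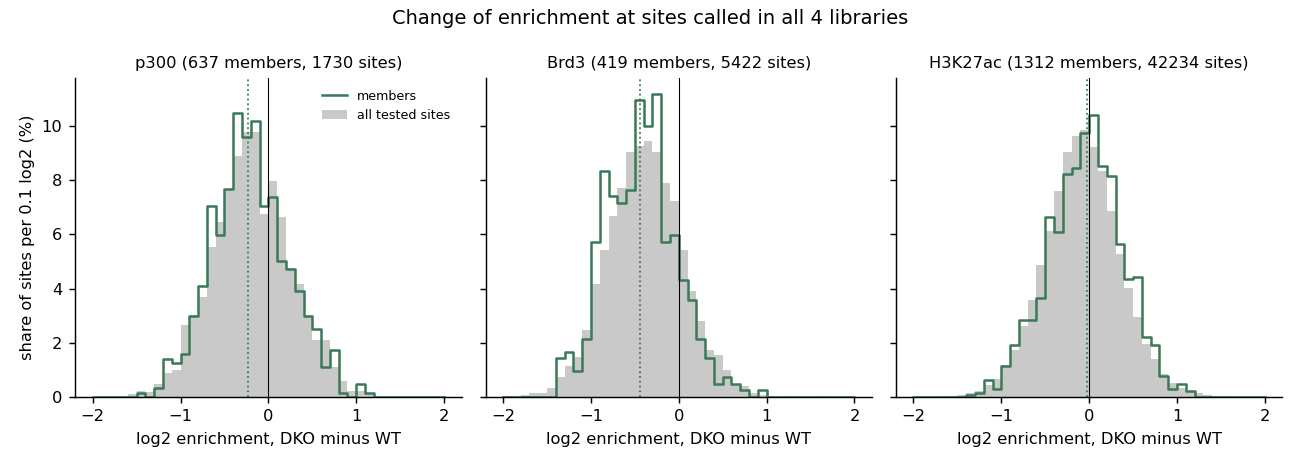
Distribution of the log2 difference in fold enrichment, DKO minus WT (x axis), as the share of sites per 0.1 (y axis, %), for all tested sites (grey bars) and members (green line, dotted at the median). The member medians lie at −0.23 for p300, −0.44 for Brd3 and −0.03 for H3K27ac, and the member distributions follow those of all sites.

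The strongest members are named here by the nearest protein-coding gene, which need not be the gene they act on. The member with the highest mean WT p300 −log10 q (87.8) lay between genes on chr1:90371948-90372468, 34211 bp from Glrp1. Its p300 fold enrichment was 26.3 and 27.02 in WT against 21.5 and 15.2 in DKO cells. Brd3 was 5.79 and 6.02 in WT with no peak in DKO cells, and H3K27ac 20.05 and 20.8 against 16.7 and 14.8. For this member every DKO value lay below both WT values. It was chosen for its WT p300 score, which favours high WT values, as it does for the other members of this group. Neither its p300 (adjusted p = 0.198) nor its H3K27ac (adjusted p = 0.326) was called by limma. The next was 4371 bp from Tnk2, a tyrosine kinase gene, with p300 at 27.1 and 25.9 against 15.9 and 18.1. The third lay in an exon of Susd1, with p300 at 28.9 and 21.9 against 17.3 and 13.4 and H3K27ac at 20.3 and 24.3 against 23.8 and 24.99.

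Near Itgb1, which encodes the beta-1 integrin subunit, p300 was 25.7 and 20.4 in WT against 24.5 and 24.2 in DKO cells, while Brd3 was 4.84 and 5.09 in WT with no DKO peak. H3K27ac there was 13.6 and 13.7 in WT against 7.16 and 7.23 in DKO cells. The p300 groups overlap at this member, and those of H3K27ac do not (adjusted p = 0.834 and 0.0300 from limma). Near Trim2, a ubiquitin ligase gene, p300 was 27.2 and 19.1 against 19.2 and 21.3 and Brd3 12.2 and 9.99 against no peak and 4.55. The member near Nmur2 had p300 at 18.8 and 20.1 against 19.3 and 15.8, no Brd3 peak in DKO cells, and H3K27ac at 6.95 and 6.50 against 3.09 and 4.14. All 8 of the strongest members had p300 in all 4 libraries. The rule fixed this in WT, and the strongest of the 10 classes of members had DKO shares of 99.3% and 98.5%.

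Among members with neither p300 nor Brd3 in DKO cells, the highest WT p300 score belonged to a region 187512 bp from Cdh5, the VE-cadherin gene, whose own start had no H3K27ac peak in any MEF library. Its p300 enrichment was 15.9 and 12.7 in WT and its Brd3 enrichment 5.30 and 6.34. The wider Brd3 site that it overlapped was called in all 4 libraries, with a log2 difference of 0.09 (SE 0.24, adjusted p = 0.822 from limma), so the missing call is that of the narrower p300 interval. H3K27ac remained, at 14.2 and 16.8 in WT against 14.9 and 19.9 in DKO cells. In an intron of Camta1, a calmodulin-binding transcription activator gene, p300 of 12.2 and 12.0 and Brd3 of 3.92 and 3.24 had no DKO peak. H3K27ac there was called in replicate 2 of each genotype, at 13.3 and 12.5. The member nearest to Fscn1, the actin-bundling fascin gene, lay in an intron of Rnf216, with p300 at 11.4 and 8.46 in WT and H3K27ac at 11.1 and 11.1 against 10.9 and 9.66. In an intron of Ablim1, which encodes an actin-binding LIM protein, p300 was 11.8 and 9.24 in WT, and H3K27ac 9.99 and 10.2 against 12.6 and 15.9. The remaining members of this group lay in an intron of Lingo2, with H3K27ac at 6.09 and 7.66 against 6.21 and 6.87, and near Fer1l6, at 9.64 and 14.1 against 10.7 and 7.72. Wider sites called in all 4 libraries also overlapped these members, with log2 differences of −0.34 for Brd3 at Lingo2 (SE 0.25, adjusted p = 0.325) and 0.04 for p300 at Fer1l6 (SE 0.24, adjusted p = 0.922). H3K27ac was present in both DKO replicates at 5 of these 6 members, against 84.8% of the 323 members in this state and 90.4% of all members.

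The strongest members with p300 and Brd3 in both DKO replicates had high H3K27ac. Near Gm355, Brd3 was 14.2 and 10.5 in WT against 8.59 and 13.4 in DKO cells, with H3K27ac at 30.9 and 34.8 against 44.0 and 33.1. The member 9563 bp from Ankrd1, a gene that responds to YAP and TEAD, had p300 at 21.5 and 17.3 against 16.4 and 13.7 and Brd3 at 8.31 and 8.51 against 3.42 and 2.73. Its H3K27ac was 22.3 and 23.6 against 26.3 and 24.3. In an intron of Vmp1, an autophagy gene, Brd3 was 14.4 and 7.03 against 10.9 and 9.34, and H3K27ac 29.8 and 29.3 against 40.4 and 42.8. The p300 groups did not overlap there, at 14.1 and 23.1 against 11.5 and 11.1, although limma called no change (adjusted p = 0.156). Near Txn2, mitochondrial thioredoxin, p300 was 25.1 and 13.0 against 22.0 and 20.3, and Brd3 8.48 and 12.7 against 7.13 and 5.70. At Gm355 and Vmp1 the Brd3 groups overlap, and at Ankrd1 and Txn2 they do not. Brd3 was not called by limma at Ankrd1 (adjusted p = 0.0905) or at Txn2 (adjusted p = 0.0737).

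The 2 members with lower p300 by limma lay near Krt18 and Gadd45g. No member was called after centring on the library median or when either WT replicate was left out, where the median log2 difference of members was −0.20 and −0.27, and 19 to 33 were called under the other variance model, pileup over background or a stricter q. The Krt18 member, 17618 bp from a keratin gene whose start had no H3K27ac peak in any library, had p300 at 10.8 and 14.4 against 5.35 and 4.16. The log2 difference was −1.40 (SE 0.26, adjusted p = 0.0452 from limma). The Gadd45g member, 123598 bp from this stress-response gene, had 12.0 and 9.73 against 4.38 and 4.52. Its log2 difference was −1.28 (SE 0.24, adjusted p = 0.0452 from limma). The same member was the 1 with higher Brd3, at 4.56 and 4.05 against 7.46 and 9.15 at the strongest summit of the tested site. This was a log2 difference of 0.94 (SE 0.24, adjusted p = 0.0207 from limma). On the p300 site itself its Brd3 peaks were 4.53 and 6.36 in WT, none in DKO replicate 1 and 9.15 in DKO replicate 2, so the DKO replicate 1 value comes from a summit beside the p300 site.

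Of the members with lower Brd3, the largest falls were near Cwc27, Klf6 and Pdgfc, each measured at the strongest summit of a tested site wider than the p300 peak. In an intron of Pdgfc, a platelet-derived growth factor gene, Brd3 was 12.0 and 12.3 in WT against 4.21 and 5.65 in DKO cells, a log2 difference of −1.31 (SE 0.25, adjusted p = 0.00794 from limma). On the p300 site itself, Brd3 had no peak in DKO replicate 1 and was 4.49 in DKO replicate 2. Its p300 was 7.47 and 6.37 in WT with no DKO peak, and its H3K27ac 18.8 and 24.7 against 15.02 and 13.5. At a member 168767 bp from Klf6, a zinc-finger transcription factor gene, Brd3 was 9.81 and 11.3 against 3.96 and 4.33 (−1.34, SE 0.24, adjusted p = 0.00625 from limma). On that p300 site there was no Brd3 peak in DKO replicate 1 and one of 4.33 in DKO replicate 2. H3K27ac there was 20.2 and 20.9 against 19.7 and 23.2. In the intron of Cwc27 the difference was −1.39 (SE 0.28, adjusted p = 0.00926 from limma), and on the p300 site Brd3 was called in WT replicate 1 alone, at 10.3.

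H3K27ac itself was among the most reduced near Pdlim5 and Rtp1. Near Pdlim5 it was 22.6 and 24.3 in WT against 11.3 and 8.60 in DKO cells (−1.25, SE 0.23, adjusted p = 0.0137 from limma), with p300 at 4.86 and 6.29 against 6.47 and 6.29. Near Rtp1, in an intron of Masp1, it was 13.3 and 16.3 against 5.90 and 6.76. It rose most near Itga11, which encodes a collagen-binding integrin, from 7.28 and 3.24 to 13.1 and 9.45 (adjusted p = 0.0440 from limma). Near Gpr84 it rose from 10.1 and 9.58 to 23.6 and 20.9, and near Klf4 from 6.78 and 8.67 to 16.1 and 17.3. These values belong to the strongest summit of the tested site. On the p300 site itself, H3K27ac near Gpr84 was 13.6 and 14.4 against 23.6 and 13.7, where the groups overlap. The other 4 members had the same values on the p300 site. None of these 5 members had a Brd3 peak in either DKO replicate, as was the case at 75.9% of all members.

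The members had 954 different nearest genes, 705 of them with 1 member and 13 with 5 or more. Klf6, Asap1 and 2610203C20Rik had 8 members each, Gadd45g and Ncam1 7, and Myc and Thbs1 6. The 6 Myc members had p300 in 5 and 6 of them in the DKO replicates and Brd3 in 0 and 1, after 6 and 4 in WT. The 8 Asap1 members had p300 in 2 and 4, Brd3 in 0 and 1 after 8 and 7 in WT, and H3K27ac in 8 and 8 after 7 and 7. At the 6 members of Thbs1, the thrombospondin-1 gene, Brd3 was found at 6 and 5 in WT against 3 and 5 in DKO cells. Over all members the DKO shares were 56.2% and 61.8% for p300 and 14.1% and 19.7% for Brd3, and the differences between genes were not tested.

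Members joined where they lay within 12.5 kb of each other gave 5 stretches of 4 members, and none longer, while 1031 members stood alone. Of these, 4 are described here. At chr15:64445129-64454546, near Asap1, the 4 members had p300 at 0 and 1 and Brd3 at none in the DKO replicates. At chr12:16847912-16860311, near Rock2 and E2f6, p300 was called at 1 and 0 and Brd3 at none. At chr15:66693357-66720672, near Wisp1, p300 was called at 4 and 3 and Brd3 at 1 and 3, and at chr8:129350260-129373736, near Tomm20, p300 at 4 and 4 and Brd3 at 1 and 2. H3K27ac was called at 3 or 4 of the 4 members in each DKO replicate at all 5 stretches. Members joined with another had Brd3 in the DKO replicates at 22.5% and 30.3%, and single members at 11.5% and 16.4%. In WT cells the shares were 92.2% and 89.1% against 81.3% and 81.0%.

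By nearest gene, the list of TGF-beta and YAP response genes held the most members of the 7 lists, 35 (2.59%) at 16 of its 25 annotated genes, against 1.01% of other distal p300 sites. They included 4 near Cyr61, 2 near Ctgf and 2 near Smad7 besides those of Thbs1. p300 was called at 24 and 24 of the 35 in the DKO replicates, Brd3 at 11 and 14 and H3K27ac at all 35. Over all members the DKO replicates called p300 at 56.2% and 61.8%, Brd3 at 14.1% and 19.7% and H3K27ac at 92.8% and 93.9%, the shares against which the counts of every gene list stand. Contractile and actin cytoskeleton genes had 13 members (0.962%, against 0.299% of other sites), including 2 near Tpm1 and 1 near Actb. In the DKO replicates Brd3 was called at 5 and 6 of them and p300 at 8 and 8. The Tpm1 member with the highest score had p300 at 12.9 and 13.4 against 10.6 and 10.97. No test was made of these lists.

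Collagen genes had 17 members (1.26%, against 31 of 2680 other sites, a similar share), led by 4 near Col1a2, with p300 at 10 and 9 and Brd3 at 3 and 3 in the DKO replicates. The Col5a2 member, 77421 bp from this collagen V gene, had p300 at 16.8 and 14.2 against 9.70 and 6.75, and Brd3 at 6.87 and 4.59 with no DKO peak. Its H3K27ac was 13.2 and 12.3 against 12.4 and 13.4. Matrix and crosslinking genes had 12 members (0.888%, against 0.522% of other sites), with Brd3 at 2 and 3 in the DKO replicates. Their strongest lay near Tnc, the tenascin C gene, with p300 at 16.99 and 16.1 against 9.86 and 10.99 and H3K27ac at 8.59 and 11.02 against 15.9 and 10.8. Growth factor and receptor genes had 8 members (0.592%, against 0.299% of other sites), of which the Fgfr2 member had p300 at 11.1 and 10.2 against 6.50 and 16.0, so that the groups overlap. Mesenchymal transcription factor genes had 10 members (0.740%, against 1.04% of other sites), with p300 at 5 and 6 and Brd3 at 1 and 2 in the DKO replicates. The strongest lay in an intron of Runx1, with p300 at 17.2 and 10.7 against 9.44 and 11.4 and H3K27ac at 14.4 and 16.7 against 16.1 and 15.5. AP-1 genes had 1 member (0.0740%, against 0.149% of other sites), 53908 bp from Jun, with p300 at 7.44 and 9.89 against no peak and 4.74.

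Members lay somewhat nearer to transcript starts and more often in introns than other distal p300 sites. Of them, 790 (58.5%) lay between genes, 550 (40.7%) in introns and 11 in exons, against 64.1%, 34.9% and 1.01% of other sites. The median distance to a start was 43234 bp, against 60857 bp. The peaks were 140 to 1144 bp wide, with a median of 268 bp. Just past the distance threshold, 27 members lay between 1013 and 1992 bp from a start, of which 15 and 17 had p300 and 5 and 9 Brd3 in the DKO replicates. The 70 regions within 1000 bp of a start that met the rest of the rule had p300 at 37 and 50 and Brd3 at 27 and 31. On chromosome X lay 7 members.

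CEBPB, H3K27me3 and H1 lists had almost nothing at members. CEBPB, excluded in WT cells by the rule, was called at 0 and 2 members in the DKO replicates. Other distal p300 sites, which could hold WT CEBPB, had it at 21.1% and 22.2%. H3K27me3 and H1 were called at none in any of the 4 libraries of each, from lists of only 117 to 553 and 281 to 315 peaks. Over all distal p300 sites the highest share in any library of either was 0.0248%, so members did not stand apart. These lists could show a gain only at the few regions that pass the caller's threshold. Peaks of any antibody in ES cells overlapped 154 members (11.4%, against 6.46% of other sites), with Nanog peaks of DKO replicate 2 at 100 members as the highest count of 1 library. Peaks of any antibody in resting B cells overlapped 37 (2.74%, against 1.64%).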

How the data were processed

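Peaks of WT and DKO MEFs were taken from the ChIP-seq lists of p300, Brd3, H3K27ac, CEBPB, H3K27me3 and histone H1, with 2 biological replicates per genotype. Lists of ES and B cells served one overlap count, and input libraries were left out. Per the methods and labels, adapters were cut by the authors with CutAdapt 1.16 before mapping to mm9, duplicates were handled by Picard, blacklisted regions were excluded, and MACS2 2.1.1.20160309 called narrow peaks in each library on its own. Per the file headers and values, the deposited fold enrichment is the ratio of the summit pileup to the local background, with 1 added to each. The significance columns were deposited as −log10 of the caller's Poisson p and of q. No peak exceeds a q of 0.01, so a site without a peak is one that did not pass this threshold.

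Overlaps of 1 bp or more between peaks were found in pandas 2.3.3 and numpy 2.4.6, under Python 3.11.15. Where several peaks overlapped a member, the one with the highest −log10 q gave its enrichment. Distances refer to protein-coding transcripts of GENCODE vM1 on NCBIM37 (mm9), the build of the lists. Peaks of the 4 libraries of an antibody were merged where they overlapped. Sites called in all 4 libraries were fitted with limma 3.58.1 in R 4.3.3 on log2 of the authors' fold enrichment at the strongest summit, with no block for replicate number. Adjustment was over all tested sites, by the Benjamini-Hochberg method, at 0.05. Letters were read from the mm9 genome with pysam 0.24.0. Pileup and background were solved from the enrichment together with −log10 p (tolerance 0.0005), where at least 85% of the pileups came out whole. Plots used matplotlib 3.10.9, and intervals scipy 1.17.1. The limma step was tested on simulated data.

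The members, gene lists and marker lists were chosen with earlier results of these data known, so no count over them is independent support. Named regions were the 8 members with the highest mean WT p300 −log10 q, the 6 highest with neither p300 nor Brd3 in DKO cells, the 4 highest with both in both DKO replicates, and the 3 largest limma falls and rises for each antibody. The longest joined stretches and the highest member of each gene list completed them. Members sharing a tested site were named once, and a few named regions and sequences are not reported here. The H3K27ac cover of the p300 summit was added after the values were seen. Alternatives covered overlap, q, distance, equal list lengths, chromosomes, scaling, variance models, a replicate block and each replicate left out.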

Additional observations from a re-analysis of the deposited data

How the results depend on the processing

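The rule and the lists bear on the shares of members with a DKO peak. With the p300 summit required inside each peak, 562 members were left and the shares were 9.07% for Brd3 and 82.4% for H3K27ac. With the same number of top peaks in every list of an antibody, the shares rose to 81.2% for p300, 31.8% for Brd3 and 98.0% for H3K27ac over 588 members. A q of at most 0.0001, a distance of 2500 bp and chromosomes 1 to 19 each left all 3 shares within 1 SD. With each replicate left out, the p300 share ranged from 45.7% without WT replicate 2 to 61.8%, the Brd3 share from 14.1% to 20.03%, and the H3K27ac share from 92.8% to 96.0%. Counted 50 bp to either side of the summit, AP-1 letters were found in 28.9% of members and 28.2% of other sites. The H3K27ac cover of the p300 summit, DKO minus WT, ranged from 8.73 to 13.3 percentage points with each replicate left out, and from 11.2 to 12.0 under the 3 other settings.

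The counts of limma calls moved with the model. For p300, members called lower numbered 0 after centring on the library median, 33 with pileup over background, 19 with a trended prior and 22 with a q of at most 0.0001, and from 0 (without either WT replicate) to 16 with a replicate left out. For Brd3 they numbered 0 after centring and 53 with pileup over background, and from 0 (without either DKO replicate) to 76. For H3K27ac, changed members numbered 87 with pileup over background and 148 with a trended prior, and from 49 to 61 with a replicate left out. The split of lower and higher H3K27ac calls was 40 and 17, 23 and 26 after centring, and 73 and 14 with pileup over background. Leaving out a replicate leaves 1 sample in an arm, which is assumed to vary like the others. The causes of these shifts were not tested. Replicates of equal number did not deviate together (correlations of −0.02, −0.00 and 0.01 for p300, Brd3 and H3K27ac), so they share only a number. With a replicate block, 3 members were called lower and 0 higher for p300, and 124 lower and 3 higher for Brd3. For H3K27ac, 126 members were called in either direction, 82 lower and 44 higher. Read depth is known only through the background, and regions that did not pass the caller's threshold have no value.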
